A study of Mus musculus with 13 samples.

Results

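The genes described here are 8 immediate early genes, Fos, Fosb, Jun, Junb, Egr1, Ier2, Dusp1 and Zfp36, and the pair of inducible 70-kilodalton heat shock protein genes, Hspa1a and Hspa1b. They were taken by symbol from the deposited count table and make up 10 of its 46958 genes. All 10 passed the filter on low counts that left 16738 genes for testing, and their lowest count in any library was 53. Messenger RNA was sequenced from glomeruli, the capillary tufts where the kidney filters blood, which were isolated on beads from mice aged 6 months. The 13 libraries comprise 4 of the genotype kFRA (LCDD), a model of light chain deposition disease in which immunoglobulin light chains accumulate in the kidney, 4 of DH-LMP2A and 5 of wild type (WT). All mice shared a mixed C57/BL6x129/SVxBALB/c background, and the labels name no treatment. DH-LMP2A is a name used for mice whose B cells make the Epstein-Barr virus protein LMP2A from the immunoglobulin heavy chain locus. Whether the LCDD mice also carry that allele is not given in the labels. Each library pooled 3 mice, except WT replicates 3, 4 and 5, which came from 1 mouse each. Every title also carries a code, NS161202, NS170411, NS171018 or NS180319, whose meaning is not stated. Replicate 1 of each genotype carries NS161202, LCDD and DH-LMP2A replicate 2 carry NS170411, and LCDD and DH-LMP2A replicate 3 with WT replicate 2 carry NS171018. The remaining 5 libraries, LCDD and DH-LMP2A replicate 4 and the single WT mice, carry NS180319, so single WT mice occur under 1 code only.

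Immediate early genes are transcribed within minutes of a stimulus from factors already present in the cell, and their messages are short-lived. Fos, Fosb, Jun and Junb encode subunits of the dimeric transcription factor AP-1, and Egr1 encodes a zinc finger transcription factor. Ier2 is a small early-response gene, Dusp1 encodes a phosphatase that switches off MAP kinases, and Zfp36 encodes tristetraprolin, which binds AU-rich messages and promotes their decay. Hspa1a and Hspa1b encode nearly the same chaperone and are switched on by heat shock factor 1 (HSF1) when proteins unfold. Both kinds of transcript are known to rise during tissue handling as well as in the living animal. Handling times are not given in the sources used here, and their part in the values below was not tested.

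Hspa1a and Hspa1b had the widest ranges of level and near-equal counts in every library, and Fos is 1 of the AP-1 genes. The sequences before the start sites of Fos, Hspa1a and Hspa1b are therefore shown, without taking Fos as typical of its group. They are the 250 bases before the RefSeq start site on GRCm38.p6, written 5′ to 3′ on the gene's strand, at chr12:85473640-85473889 on the plus strand for Fos, chr17:34972157-34972406 on the minus strand for Hspa1a and chr17:34959239-34959488 on the minus strand for Hspa1b. Capitals in Fos mark the core of the cAMP response element (TGACGT) and the TATA box (TATAAA). Capitals in the HSP70 genes mark a heat shock element pair (GAANNTTC) and a CCAAT box, which lies on the other strand and so reads ATTGG.
Fos: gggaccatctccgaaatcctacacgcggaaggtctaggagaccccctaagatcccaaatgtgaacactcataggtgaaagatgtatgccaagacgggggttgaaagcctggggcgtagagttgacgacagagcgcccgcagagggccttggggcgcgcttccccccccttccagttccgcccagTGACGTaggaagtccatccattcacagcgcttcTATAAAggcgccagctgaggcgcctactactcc
Hspa1a: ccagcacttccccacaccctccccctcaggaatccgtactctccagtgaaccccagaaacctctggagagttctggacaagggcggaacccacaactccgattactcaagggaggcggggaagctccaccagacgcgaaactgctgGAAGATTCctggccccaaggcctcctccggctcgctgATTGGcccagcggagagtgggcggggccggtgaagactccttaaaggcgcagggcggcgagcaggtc
Hspa1b: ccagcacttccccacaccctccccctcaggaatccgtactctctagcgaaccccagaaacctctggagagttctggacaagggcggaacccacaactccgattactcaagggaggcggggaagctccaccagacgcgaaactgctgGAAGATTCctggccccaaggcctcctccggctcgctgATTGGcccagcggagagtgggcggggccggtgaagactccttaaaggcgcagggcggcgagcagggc
The HSP70 sequences were identical at 247 of these 250 bases (98.8%), with the substitutions C44T, T47C and T249G, given as the Hspa1a base, the position counted from 1 at the 5′ end and the Hspa1b base. The heat shock element pair lay 104 to 97 bases before the start site in both genes (-104 to -97), and the CCAAT box at -67 to -63. In Fos the TGACGT core lay at -66 to -61 and the TATA box at -33 to -28.

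The motifs were searched on both strands in windows of 300 bases, from 250 before to 50 after the start site. The windows covered 8 of the 10 genes and 32851 promoters in all. Egr1 and Ier2 were not found in the promoter set used, so they were not searched. TGACGT occurred in 2 of the 8, Fos and Dusp1, and in 7.51% of all promoters. The GAANNTTC pair occurred in 3, Hspa1a, Hspa1b and Jun, and in 7.86% of all promoters. TATAAA occurred in Fos and Junb and in 13.6% of all promoters. In Junb these letters lay at bases 1 to 6 counted from the start site, and not before it. CCAAT occurred in 4 of the 8 and in 37.4% of all. The EGR site GCGNGGGCG was found in Fosb and Zfp36 (5.55% of all promoters), and the serum response CArG box in Zfp36 (1.63% of all). The Dusp1 window also held the full palindrome TGACGTCA, which overlaps the core and occurs in 1.79% of promoters. The AP-1 site TGANTCA was in 0 of the 8 windows (7.81% of all promoters), and the tail-to-tail pair TTCNNGAA also in 0 (8.52%). A match describes these letters and this window only.

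Total counts ran from 16687509 to 30587890 per library, and the values below are CPM, each count as a share of its library's total at 1 common depth, scaled by TMM, a correction for library composition. Positions of the genes are those of the deposited table, on GRCm38. Podocyte, endothelial and mesangial markers were present in every library, so the glomerular label held: 8 podocyte markers summed to between 7140 CPM in LCDD replicate 1 and 33600 CPM in WT replicate 4. Proximal tubule markers, which a pure glomerular preparation should lack, summed to between 97.3 CPM in WT replicate 4 and 2720 CPM in WT replicate 1. In bulk tissue, fewer cells that make a transcript and less transcript per cell cannot be told apart. The labels alone make these libraries replicates, so p-values describe only the spread between them.

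Per kilobase of exon and averaged over the 13 libraries, Dusp1 stood highest at 107 CPM and Fosb lowest at 6.45 CPM. Between them lay Hspa1b (101), Jun (96.6), Hspa1a (90), Zfp36 (83.3), Junb (53.7), Fos (47.7), Ier2 (27) and Egr1 (19.3), in the same unit. The SD of CPM within WT exceeded the mean for Fos (116 ± 146 CPM, SD, n = 5), Fosb, Hspa1a and Hspa1b, and in LCDD for Fosb (30.6 ± 43 CPM, SD, n = 4), while in DH-LMP2A it stayed below the mean for all 10 genes. The order describes the average and not each library.

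Fos lies at chr12:85473890-85477273 on the plus strand with 4 exon blocks, and Fosb at chr7:19302721-19310045 on the minus strand with 4. Fos gave 75.5, 321, 52.9 and 78.8 CPM in LCDD replicates 1 to 4, 124, 66.6, 52 and 106 CPM in DH-LMP2A, and 369, 105, 22.2, 15.9 and 69.7 CPM in WT replicates 1 to 5. Its 2 highest libraries, WT replicate 1 and LCDD replicate 2, differ in genotype and in title code, and the 3 genotypes overlapped. Fosb, the AP-1 subunit gene with the lowest level here, gave 4.57, 94.9, 9.8 and 13.1 CPM in LCDD, 16.7, 12.3, 11.4 and 22.6 CPM in DH-LMP2A, and 83.7, 13.3, 2.48, 2.37 and 27.7 CPM in WT. The same 2 libraries stood highest, and the next was WT replicate 5, a single mouse. LCDD replicate 1 held 119 counts of Fosb, the third lowest, while its Fos level was the median of the 13 libraries.

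Jun lies at chr4:95049034-95052222 and Junb at chr8:84976909-84978748, both on the minus strand. Jun gave 260, 828, 157 and 225 CPM in LCDD, 306, 207, 175 and 209 CPM in DH-LMP2A, and 667, 344, 180, 194 and 254 CPM in WT. Its lowest value was in LCDD replicate 3 and not in a single WT mouse, and 11 of the 13 libraries lay between 157 and 344 CPM. Junb gave 113, 276, 51.7 and 76.1 CPM in LCDD, 136, 39.4, 42.4 and 85.8 CPM in DH-LMP2A, and 196, 150, 24.9, 24.2 and 69.7 CPM in WT. Both genes have 1 exon in the table's annotation and were highest in LCDD replicate 2. Jun overlaps the opposite-strand gene Junos, which held 19 to 189 counts, and the strand setting of the counting is not given in the sources used here.

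Egr1 lies at chr18:34859823-34864984 on the plus strand with 2 exon blocks, and Ier2 at chr8:84661331-84662852 on the minus strand with 1. Egr1 gave 77.4, 264, 44.4 and 56.5 CPM in LCDD, 116, 48.8, 48.1 and 108 CPM in DH-LMP2A, and 172, 52.8, 24.7, 30.4 and 85 CPM in WT. Ier2 gave 54.6, 90.6, 29.8 and 30.5 CPM in LCDD, 54.6, 23.2, 22.9 and 27.1 CPM in DH-LMP2A, and 79.5, 42.6, 21.1, 20.8 and 37.5 CPM in WT. Both followed Fos in their 2 highest libraries, over a narrower range for Ier2 (4.35-fold from lowest to highest) than for Egr1 (10.7-fold).

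The feedback genes Dusp1 and Zfp36 had the smallest SDs of log2 CPM within genotypes. They lie on the minus strand at chr17:26505590-26508519 and chr7:28376784-28379255, with 2 exon blocks each. Dusp1 gave 427, 463, 252 and 369 CPM in LCDD, 323, 152, 174 and 210 CPM in DH-LMP2A, and 403, 392, 203, 169 and 212 CPM in WT. It was the gene of the 10 with the smallest range over all libraries (3.04-fold), and 3 of the 4 LCDD libraries lay above every DH-LMP2A library. Zfp36 gave 147, 331, 113 and 142 CPM in LCDD, 169, 102, 105 and 134 CPM in DH-LMP2A, and 255, 161, 83.4, 74.7 and 121 CPM in WT. LCDD replicate 2 and WT replicate 1 were again the highest for Zfp36, and the genotypes overlapped.

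Hspa1a at chr17:34969190-34972156 and Hspa1b at chr17:34956436-34959238 have 1 exon each and lie side by side on the minus strand. Hspa1a gave 504, 811, 79.2 and 280 CPM in LCDD, 547, 97.8, 124 and 211 CPM in DH-LMP2A, and 301, 435, 18, 14.9 and 48.6 CPM in WT. Its range of 54.4-fold was the widest of the 10 genes. Hspa1b gave 571, 787, 87.6 and 296 CPM in LCDD, 589, 102, 125 and 233 CPM in DH-LMP2A, and 323, 471, 18.5, 16.6 and 49.2 CPM in WT. For both genes the 3 single WT mice lay below all 10 pooled libraries, and the second highest library was DH-LMP2A replicate 1 rather than WT replicate 1. The counts of Hspa1a over those of Hspa1b stayed between 0.882 and 1.031 in every library. Of the windows of 75 bases, the length of 1 read, in their transcripts, 54.2% for Hspa1a and 55.8% for Hspa1b occur in each other or in Hspa1l, and how such reads were assigned is not given in the sources used here. The 2 rows are therefore uncertain as separate measurements and may hold 1 signal. Counts and medians over the 10 genes below still include both rows, so the pair weighs double in them. For 7 of the other 8 genes no such window was shared, and for Zfp36 1.03% were.

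**Figure D1:**
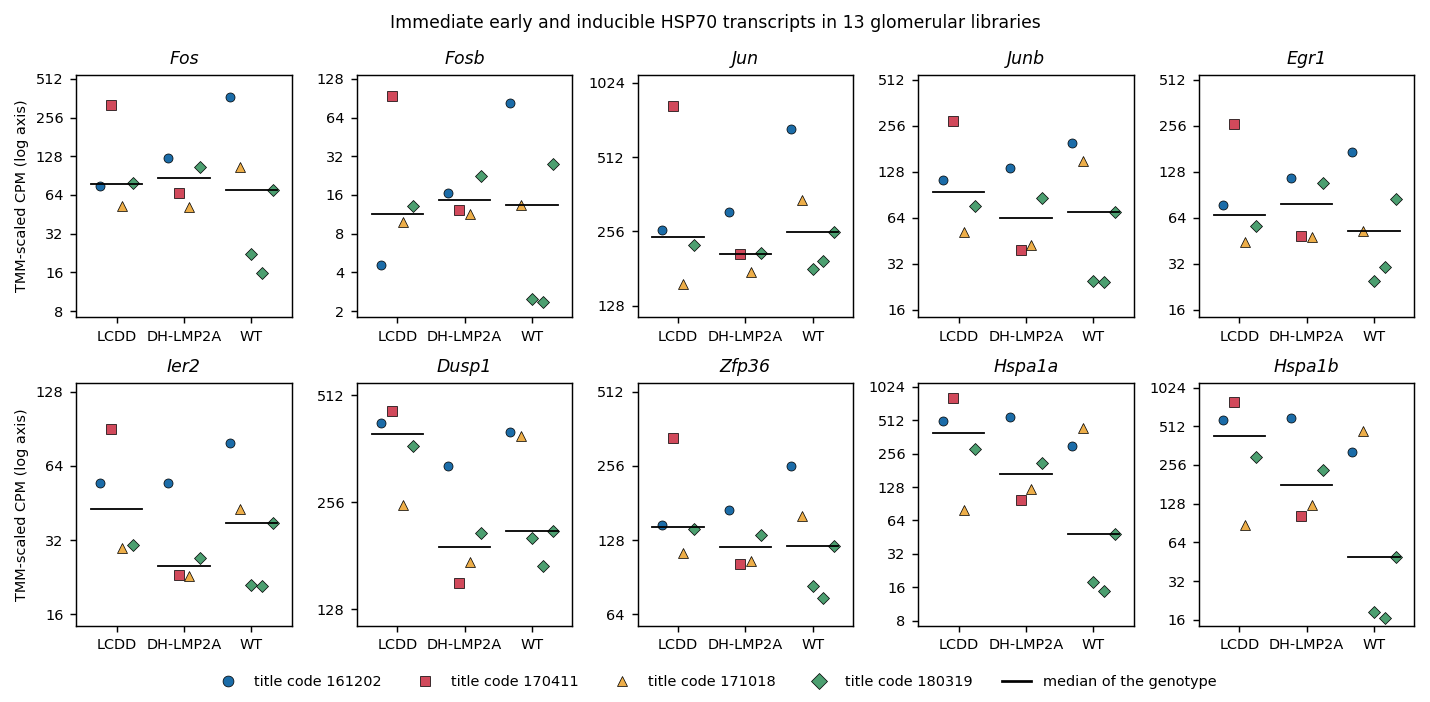
Level of each gene in each library, as TMM-scaled CPM on a log axis (base 2, one range per panel), by genotype, with 4 LCDD, 4 DH-LMP2A and 5 WT libraries. Symbols give the title code and bars the median of the genotype. LCDD replicate 2 (red square) is the highest for 9 of the 10 genes and WT replicate 1 (blue circle) for Fos, and the genotypes overlap in every panel.

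LCDD replicate 2 was among the 2 highest libraries for all 10 genes and the highest for 9, and WT replicate 1 was among the 2 highest for 7. Of 11615 genes averaging 5 CPM or more, LCDD replicate 2 was the highest library for 6.41% and WT replicate 1 for 4.84%. At the other end, WT replicates 3 and 4 were among the 2 lowest for 8 and 9 of the 10 genes. WT replicate 5, a single mouse under the same code, was among the 2 lowest for 0 of them. Within a genotype, the highest library stood 1.84- to 20.8-fold above the lowest in LCDD, 1.65- to 5.78-fold in DH-LMP2A and 2.38- to 35.3-fold in WT, depending on the gene.

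The spread between libraries of a genotype was large beside that of other genes. The standard deviation of log2 CPM within genotypes, pooled over the 3 of them, was 1.75 for Fosb, 1.74 for Hspa1a and for Hspa1b, 1.35 for Fos, 1.15 for Junb and 1.03 for Egr1. These stood at percentiles 93.9 (Egr1) to 99.5 (Fosb and the HSP70 pair) of the 16738 tested genes, whose median was 0.32. Jun (0.77), Ier2 (0.73) and Zfp36 (0.62) stood at percentiles 87.1, 85.6 and 79.3. Dusp1, at 0.5 and percentile 70.1, was the least variable. Among the AP-1 subunit genes, Jun thus varied less than Fosb, Fos and Junb.

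**Figure D2:**
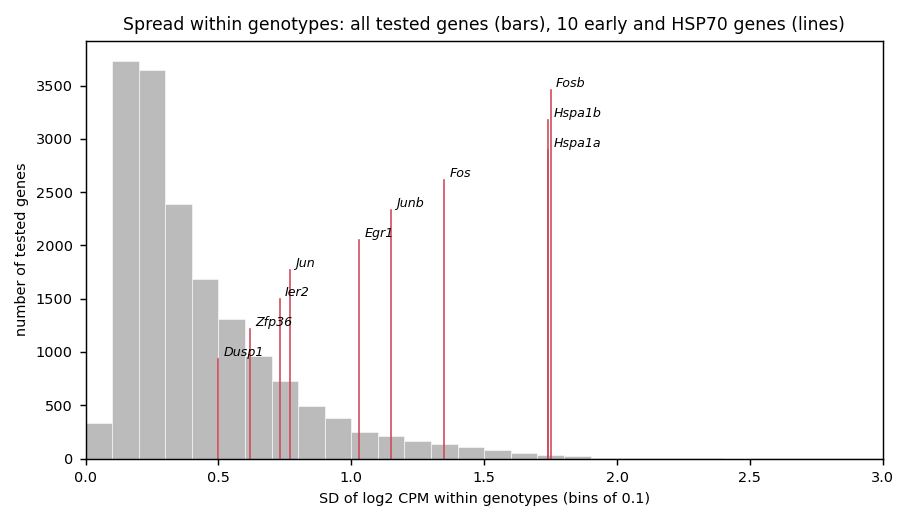
Number of tested genes (grey bars, bins of 0.1) by the SD of their log2 CPM within genotypes, with the 10 genes as red lines whose heights carry no value. Fosb and the HSP70 pair lie at 1.74 to 1.75, far right of the median of 0.32 over all tested genes, and Dusp1 at 0.5.

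As a description over the 13 libraries, which share depth and composition between genes, Pearson's r of log2 CPM ran from 0.46 (Fosb with Dusp1) to 0.96 (Fos with Zfp36, and Junb with Zfp36) over the 28 pairs of early genes, with a median of 0.86. Hspa1a correlated with the 8 early genes at 0.62 (Fosb) to 0.9 (Junb), with a median of 0.775, which lies within the range of the early genes among themselves. The mean log2 CPM of the HSP70 pair minus that of the 8 early genes ran from -1.07 in WT replicate 4 to 2.66 in LCDD replicate 1. It was below 0 in the 3 single WT mice (-0.93, -1.07 and -0.8) and above 0 in all 10 pools, the lowest of which were LCDD replicate 3 (0.48) and WT replicate 1 (0.5). The pools thus differed among themselves too: LCDD replicate 1, DH-LMP2A replicate 1 and WT replicate 2 had mean early levels of 6.41, 6.84 and 6.65 on the log2 scale and HSP70 levels of 9.07, 9.15 and 8.82, while WT replicate 1 had 7.79 and 8.28.

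**Figure D3:**
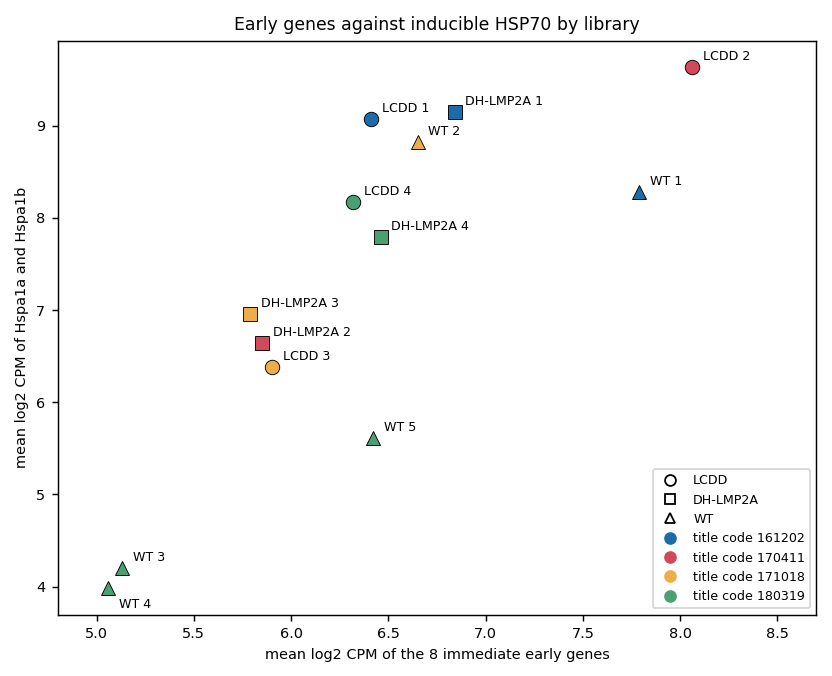
Mean log2 CPM of Hspa1a and Hspa1b (vertical) against that of the 8 immediate early genes (horizontal), 1 point per library, shape for genotype and colour for title code. LCDD replicate 2 is highest on both axes, WT replicate 1 is high on the horizontal axis only, and WT replicates 3 and 4 are lowest on both.

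Per kilobase of exon, the balance between single genes also shifted. Fosb stood at 0.0379 of the Fos level in LCDD replicate 1 and at 0.249 in WT replicate 5, with a median of 0.115. Fos stood at 0.111 of the Jun level in WT replicate 4 and at 0.749 in WT replicate 1. The Hspa1a level was 5.29 times the Fos level in LCDD replicate 1 and 0.553 times in WT replicate 5, again per kilobase. So a library with much HSP70 was not always one with much Fos.

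The first comparison asks whether these transcripts differ between the light chain genotype and DH-LMP2A. All 10 genes had higher fitted levels in LCDD, by 0.46 (Egr1) to 0.96 (Fosb) on the log2 scale, with a median of 0.72 against -0.01 over all tested genes. Over all libraries, by edgeR's quasi-likelihood test with Benjamini-Hochberg adjustment over all tested genes, 0 of 10 were called at an adjusted p under 0.05, where 2.00% of all tested genes were. At an unadjusted p under 0.05 there was 1, Dusp1, where 13.1% of all tested genes were. DESeq2 also called 0 of 10. Dusp1 differed by 0.81 ± 0.32 (SE, 95% interval 0.12 to 1.51, adjusted p = 0.28 by edgeR), and by 0.85 ± 0.27 with the title code as a replicate block (adjusted p = 0.0953 by edgeR). With that block 0 of 10 were called, where 6.10% of all tested genes were. For Fos the difference was 0.6 ± 0.85, with an interval from -1.23 to 2.43. For Hspa1a it was 0.77 ± 1.02, with an interval from -1.43 to 2.97. Without LCDD replicate 2 the sign was positive for 6 of the 10, and Fos (-0.36), Fosb (-0.8), Egr1 (-0.46) and Jun (-0.1) turned negative. Cell type markers were also displaced in this comparison, with 0 called by edgeR in each of the lists that follow. All 8 glomerular endothelial markers had positive differences (median 0.49), as had all 8 macrophage markers (median 0.61), while 0 of 8 podocyte markers had (median -0.45). Of 10 proximal tubule markers 1 was positive (median -0.81). Markers of the loop, distal tubule and collecting duct were positive for 0 of 9 (median -0.49), and red blood cell markers for 0 of 5 (median -0.71). With the replicate block 2 podocyte markers were called lower in LCDD (2.86% of all tested genes). Endothelial markers summed to 5090 to 12000 CPM in LCDD, 3740 to 9710 CPM in DH-LMP2A and 7490 to 12200 CPM in WT, and 0 of them was at 0 counts in any library. The part of these cell types in the differences of the 10 genes was not tested.

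The same comparison can be read within each title code. Under NS170411 the LCDD library lay above the DH-LMP2A library for 10 of 10 genes, by 3.04-fold (Dusp1) to 8.3-fold (Hspa1a). Under NS161202 it lay above for 1 of 10, Dusp1 (1.32), with Ier2 at 1 and the lowest ratio, 0.274, for Fosb. Under NS171018 it lay above for 5 of 10 (0.639 to 1.45), and under NS180319 for 6 of 10 (0.521 to 1.76). Dusp1 was above under all 4 codes, at 1.32-, 3.04-, 1.45- and 1.76-fold. Each such ratio rests on 1 library per genotype and has no test.

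Against WT, the 10 LCDD differences were again positive, from 0.16 (Jun) to 1.36 (Hspa1a), with a median of 0.43 against 0.01 over all tested genes. By edgeR 0 of 10 were called, where 1.84% of all tested genes were, and 0 reached an unadjusted p under 0.05. DESeq2 called 0 as well. Hspa1a differed by 1.36 ± 0.96, with an interval from -0.72 to 3.44. Hspa1b differed by 1.31 ± 0.96, with an interval from -0.77 to 3.39. Both intervals include 0. The signs depended on few libraries: positive differences numbered 3 of 10 without LCDD replicate 2, 7 without WT replicate 3, 8 without WT replicate 4 and 2 without the 3 single WT mice.

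Between DH-LMP2A and WT, 3 differences were positive and 7 negative, from -0.72 (Fosb) to 0.58 (Hspa1a and Hspa1b), with a median of -0.31 against 0 over all tested genes. By edgeR 0 of 10 were called, where 0.627% of all tested genes were, with 0 at an unadjusted p under 0.05 (12.5% of all). DESeq2 called 0 of 10 too. Jun differed by -0.55 ± 0.49 and Hspa1b by 0.58 ± 0.96. Here too single libraries set the signs: 8 of 10 were positive without WT replicate 1 and 0 of 10 without DH-LMP2A replicate 1. This comparison shares its WT libraries with the one before it and its DH-LMP2A libraries with the first.

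**Figure D4:**
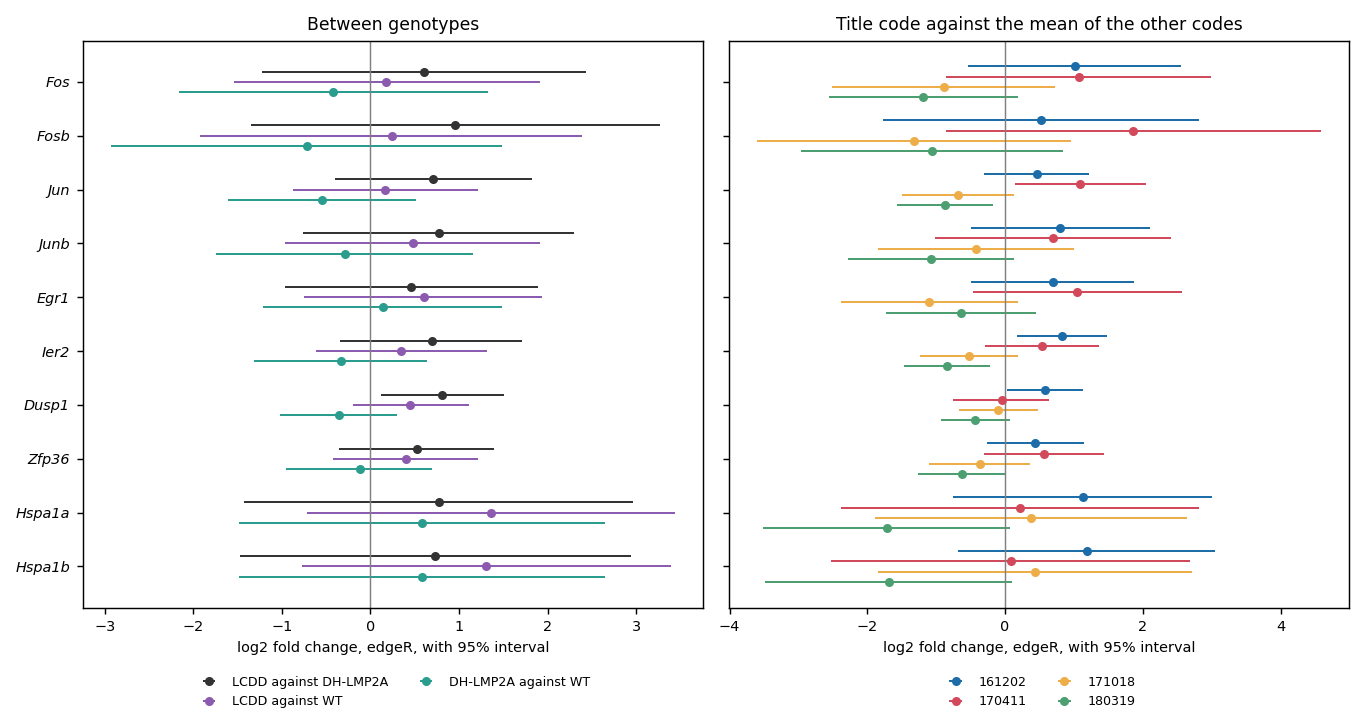
Log2 fold changes from edgeR with their 95% intervals, between genotypes (left, 3 comparisons) and for each title code against the mean of the other codes at equal genotype (right, 4 codes). On the left Dusp1 between LCDD and DH-LMP2A is the only interval that excludes 0 (0.12 to 1.51), and 0 differences in either panel passed the adjusted threshold.

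The second question is whether the transcripts follow the title code. In a fit with genotype and code, the F test over the 4 codes called 0 of 10 genes by edgeR, where 18.6% of all tested genes were called. At an unadjusted p under 0.05 there were 2, Jun (adjusted p = 0.0858) and Ier2 (adjusted p = 0.0629), and the likelihood ratio test of DESeq2 called both, at adjusted p = 0.00724 and 0.00383. Over all 16738 tested genes 37.7% reached an unadjusted p under 0.05 by edgeR, and DESeq2 called 5509. Ier2 was also called by edgeR without LCDD replicate 2 (adjusted p = 0.0312), and both were called without DH-LMP2A replicate 2 (adjusted p = 0.0187 for Jun and 0.0175 for Ier2). For the other 8 genes the adjusted p lay between 0.209 and 0.366.

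Each code was then set against the mean of the other 3. Under NS161202 all 10 genes had positive differences with a median of 0.74, and 0 were called where 17.9% of all tested genes were. Ier2 (0.83 ± 0.3) and Dusp1 (0.58 ± 0.25) reached an unadjusted p under 0.05, as 34.2% of all tested genes did. Under NS170411, 9 were positive with 0 called (0.00597% of all tested genes). Of the 10, 1 reached an unadjusted p under 0.05, Jun (1.09 ± 0.42), as 9.06% of all tested genes did. Without LCDD replicate 2, 0 of 10 were positive under NS170411. Under NS171018, 2 were positive, the HSP70 pair, with 0 called (7.92% of all) and 0 at an unadjusted p under 0.05 (28.5% of all). Under NS180319, 0 were positive and the median was -0.97, with 0 called (2.49% of all). Jun (-0.87 ± 0.31) and Ier2 (-0.84 ± 0.28) reached an unadjusted p under 0.05, as 28.2% of all tested genes did. The largest difference under NS180319 was that of Hspa1a (-1.72 ± 0.81), followed by Hspa1b (-1.69 ± 0.81). All 10 signs under NS180319 stayed negative whichever library was left out, but 3 were positive with the tubule covariate described below and 1 in a fit of LCDD and DH-LMP2A alone. The same covariate changed the positive signs to 4 under NS161202, 6 under NS170411 and 7 under NS171018. Without WT replicate 2, 0 were positive under NS171018.

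The low values under NS180319 were shared unequally by its libraries. Hspa1a stood at 18, 14.9 and 48.6 CPM in the single WT mice and at 280 and 211 CPM in the LCDD and DH-LMP2A pools of that code. For 5 of the 10 genes, Fos, Junb, Zfp36 and the HSP70 pair, all 3 single mice lay below both pools, as they did for 19.7% of all tested genes. They lay below both WT pools for 8 of 10, all except Fosb and Egr1, against 16.7% of all tested genes. Below all 10 pools they lay for 2 of 10, the HSP70 pair, which may be 1 signal, against 2.46%. Egr1 in WT replicate 5, at 85 CPM, was above the LCDD pool of its code (56.5 CPM). All single mice are WT under 1 code. Genotype and pooling therefore cannot be told apart against the pools of the same code, nor pooling and code against the WT pools. Against all 10 pools, genotype, pooling and code cannot be told apart.

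Tubule markers moved with the early genes over part of the series. The 10 proximal tubule markers summed to 1170, 1440, 344 and 456 CPM in LCDD, 2610, 1860, 845 and 440 CPM in DH-LMP2A, and 2720, 168, 175, 97.3 and 372 CPM in WT. WT replicate 1 and LCDD replicate 2 were high for both, but DH-LMP2A replicate 2 had 1860 CPM of tubule markers with 66.6 CPM of Fos, and WT replicate 2 had 168 CPM of markers with 435 CPM of Hspa1a. Markers of the loop, distal tubule and collecting duct, 9 in all, ran from 194 CPM in WT replicate 3 to 1890 CPM in WT replicate 1. With the tubule score as a covariate, the F test over codes called 4 genes in all and 0 of the 10, whose lowest adjusted p was 0.485. The score itself followed the code: without the covariate that test called 8 of the 10 tubule markers, where 18.6% of all tested genes were called. Tubule content and title code therefore cannot be told apart in the covariate fit. The same covariate left 0 of 10 called in each genotype comparison. It brought Dusp1 and Ier2 between LCDD and DH-LMP2A to adjusted p = 0.0545 and 0.0777, and it turned the LCDD difference from WT negative for 7 of the 10. Between DH-LMP2A and WT it made all 10 differences negative. The number at an unadjusted p under 0.05 went from 0 to 4, where 4068 of all 16738 tested genes were with the covariate. The 4 were Ier2 at -1.16 (edgeR adjusted p = 0.0584), Jun at -1.32 (0.0735), Dusp1 at -0.81 (0.129) and Zfp36 at -0.7 (0.184). Macrophage markers (8 markers, 78.6 to 269 CPM) were highest in WT replicate 2, followed by LCDD replicate 2 (244 CPM) and WT replicate 1 (214 CPM), both of which had high early levels. Neutrophil markers (5 markers, 9.32 to 69.6 CPM) were highest in WT replicate 2. Parietal epithelial (6 markers, 114 to 237 CPM) and B and plasma cell markers (6 markers, 55.5 to 130 CPM) were highest in LCDD replicate 2. Red blood cell markers (5 markers, 183 to 1420 CPM) were highest in WT replicate 1. Podocyte markers (8 markers) summed to 7140, 13000, 30700 and 25700 CPM in LCDD, and 16100, 20700, 31400 and 30600 CPM in DH-LMP2A. In WT they summed to 14900, 33200, 31400, 33600 and 24700 CPM. Without the covariate the F test over codes called 8 of these 8, where 18.6% of all tested genes were. All 8 were called lower under NS161202 (8.76% of all), 7 higher under NS171018 (5.91%) and 1 higher under NS180319 (0.938%). In 6 libraries 1 neutrophil marker was at 0 counts, and every other marker had counts in every library. The part of any of these cells in the values of the 10 genes was not tested.

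The genes whose log2 CPM was most like the mean of the 8 early genes, among 10983 candidates averaging 5 CPM or more, were Atf3 (r = 0.933 over 13 libraries) and Socs3 (0.929). Atf3, an ATF family factor, ran from 3.22 CPM in WT replicate 4 to 50.4 CPM in LCDD replicate 2. Socs3, an inhibitor of cytokine signalling, ran from 12.9 to 277 CPM between the same libraries. The next 8 were Rap1gap2 (0.898), Pmm1, Lactb, Pygl, Hoxb9, Slc1a5, Egf and Zbed3 (0.874). Egf, made in the distal nephron, was highest in WT replicate 1 at 929 CPM. The 2 genes most like the HSP70 pair were Hsp25-ps1 (0.946) and Hspb1 (0.941), a small heat shock protein gene at 55 to 171 CPM. Hsp25-ps1 is named as a pseudogene of Hspb1, so the reads of these 2 may be shared. After them came Fbxo34 (0.917), Actg1, Rplp0, Dut, Dusp5, Ssbp4, Hic1 and Slc25a25 (0.892).

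Other genes of the same programmes were taken from 7 lists. Of 8 tested AP-1 and ATF genes and 19 other early transcription factors, edgeR without the replicate block called 0 in every genotype comparison, with 0 to 2 at an unadjusted p under 0.05 in each list and comparison. DESeq2 called 0 of the 8, and 1 of the 19, lower in DH-LMP2A against WT, where it called 458 of 16709 genes in either direction. Nr4a1, an orphan nuclear receptor, differed from WT by 0.79 ± 0.4 in LCDD (adjusted p = 0.494). Its level peaked in WT replicate 2 at 244 CPM, not in LCDD replicate 2 (178 CPM). Atf3 differed by 0.27 ± 0.74 between LCDD and DH-LMP2A.

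Among 34 feedback and signalling early genes, edgeR without the replicate block called 1 in a genotype comparison, Spry4, an inhibitor of receptor tyrosine kinase signalling. Spry4 rose in LCDD against DH-LMP2A by 0.66 ± 0.15 (edgeR adjusted p = 0.0427), where 1.30% of all tested genes were called higher. DESeq2 called 1 of the 34 higher in LCDD against DH-LMP2A, 1 higher in LCDD against WT and 1 lower in DH-LMP2A against WT. Of 16709 genes it called 812, 726 and 458 in that order, in either direction. Spry4 gave 136, 141, 107 and 139 CPM in LCDD and 91.7, 85.5, 74.7 and 79.6 CPM in DH-LMP2A, without overlap. The call held in 10 of 22 alternatives with differences of 0.6 to 0.74 throughout. It was lost without any one of LCDD replicates 1, 2 or 4, DH-LMP2A replicates 2, 3 or 4, or WT replicates 3 or 5, with adjusted p from 0.0599 to 0.15. With the replicate block 4 of the 34 were called higher, where 3.24% of all tested genes were: Spry4 (0.66 ± 0.14), Ier5 (0.93 ± 0.16), Dusp6 (0.74 ± 0.15) and Arc (1.03 ± 0.25).

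Of 12 tested secreted early genes, edgeR called 1, Adamts1, higher in LCDD against DH-LMP2A, where 1.30% of all tested genes were called higher. DESeq2 called 3 higher, where it called 812 of 16709 genes in either direction. Adamts1, a secreted metalloprotease, rose in LCDD by 1.28 ± 0.26 against DH-LMP2A (edgeR adjusted p = 0.0276). It also rose by 1.13 ± 0.25 against WT (edgeR adjusted p = 0.0342), where again 1.30% of all tested genes were called higher. It gave 1090, 729, 382 and 622 CPM in LCDD, 255 to 323 CPM in DH-LMP2A and 242 to 391 CPM in WT. Adamts1 peaked in LCDD replicate 1 and not in LCDD replicate 2, the library with the most early transcripts. Against WT it kept its call in 9 of 22 alternatives. Without the single WT mice it lost it, at adjusted p = 0.634 and a difference of 0.82. It also lost it without any one of LCDD replicates 1, 2 or 4, DH-LMP2A replicates 2, 3 or 4, or WT replicates 3, 4 or 5 (adjusted p from 0.0516 to 0.111). Against DH-LMP2A, Adamts1 kept its call in 15 of 22 alternatives and lost it without LCDD replicates 1 or 2 or DH-LMP2A replicates 2, 3 or 4. With the replicate block Lif, a cytokine of the interleukin 6 family, was called lower in LCDD against DH-LMP2A (-1.18 ± 0.25, edgeR adjusted p = 0.027). Adamts1 was called higher (1.23 ± 0.21). Of all tested genes that fit called 2.86% lower and 3.24% higher.

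The 28 HSF1-inducible chaperones and co-chaperones beside HSP70 had median differences from WT of 0.33 in LCDD and 0.34 in DH-LMP2A, against 0.01 and 0 over all tested genes, with 23 of 28 positive in each. By edgeR 0 were called in either, with 11 and 10 at an unadjusted p under 0.05, where 2002 and 2085 of all 16738 tested genes were. DESeq2 called 1 higher in LCDD and 3 in DH-LMP2A, where it called 726 and 458 of 16709 genes in either direction. Dnajb1, the HSP40 partner of HSP70, differed from WT by 0.6 ± 0.19 in LCDD (adjusted p = 0.168) and 0.7 ± 0.19 in DH-LMP2A (0.145). Hspa8, the constitutive relative of HSP70, differed by 0.52 ± 0.22 and 0.34 ± 0.22, and Hspb1 by 0.64 ± 0.31 and 0.21 ± 0.31. Between LCDD and DH-LMP2A the median of the list was -0.01, and edgeR called 0 of 28 without the replicate block (2.00% of all tested genes). With the block it called 1, Hspb8, which was lower in LCDD (-0.72 ± 0.11, adjusted p = 0.00704), where 2.86% of all tested genes were called lower.

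Of 24 upstream regulators and 18 other acute stress genes, 0 were called by edgeR between genotypes, with 0 to 2 at an unadjusted p under 0.05 in each list and comparison. Of both lists DESeq2 called 1, an acute stress gene lower in DH-LMP2A against WT, where it called 458 of 16709 genes in either direction. Srf, the serum response factor that drives Fos and Egr1, lay between 50.8 and 85.5 CPM in all libraries. Hsf1 lay between 49.2 and 74.5 CPM. The SD of log2 CPM within genotypes was 0.21 for each, below the median of all tested genes.

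By title code, several of these lists held called genes where the 10 held none. Under NS161202, 11 of 28 chaperones were called higher and 1 lower by edgeR, where 9.09% and 8.76% of all tested genes were, led by Hspd1 (0.57 ± 0.08), Cacybp (0.84 ± 0.12), Dnaja1 (0.88 ± 0.14) and Hsph1 (0.9 ± 0.14). The count of 11 became 4 without LCDD replicate 1, 3 without a genotype term, 5 without the single WT mice and 0 with the tubule covariate. Of 34 feedback genes, 10 were called higher and 1 lower, led by Dusp6 (0.97 ± 0.14), Errfi1 (1.13 ± 0.18), Ier5 (0.86 ± 0.14) and Btg1 (0.59 ± 0.11). That count of 10 became 5 without DH-LMP2A replicate 1, 6 without a genotype term and 0 with the covariate. Of 19 early transcription factors, 4 were called higher, among them Id1 (0.79 ± 0.15), Klf2 (0.61 ± 0.12) and Id3 (0.49 ± 0.12), and 1 lower, the clock gene Per1 (-0.85 ± 0.22). The count of 4 became 0 without DH-LMP2A replicate 1, 2 without DH-LMP2A replicate 2, the single WT mice or a genotype term, and 0 with the covariate. The lower call was lost without any one of LCDD replicate 1, DH-LMP2A replicates 1 or 2, or WT replicate 1, without a genotype term and with the covariate.

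Under NS180319, 5 of 34 feedback genes were called lower, where 1.55% of all tested genes were, led by the feedback inhibitor Errfi1 (-0.95 ± 0.17), Gadd45g (-1.2 ± 0.22), Rhob (-0.62 ± 0.12) and Ier5 (-0.72 ± 0.14). The count was 1 without LCDD replicate 4 or DH-LMP2A replicate 1, and 0 without any one of LCDD replicate 2, DH-LMP2A replicates 3 or 4, or WT replicates 2, 3 or 4. In the same contrast Klf2 was lower (-0.72 ± 0.11) and Hspb8 higher (0.58 ± 0.1), where 0.938% of all tested genes were called higher. The chaperone count of 1 and the early transcription factor count of 1 were both 0 without any one of LCDD replicate 2, DH-LMP2A replicates 3 or 4, or WT replicates 2, 3 or 4, without the single WT mice and with the covariate, and the first also without LCDD replicate 4 or a genotype term. The second became 4 without DH-LMP2A replicate 2 and 2 without WT replicates 1 or 5. Under NS171018 the small heat shock genes Hspb8 (0.72 ± 0.1) and Cryab (0.76 ± 0.15) were called higher and Hspd1 (-0.41 ± 0.09) and Cacybp (-0.49 ± 0.13) lower, where 5.91% and 2.01% of all tested genes were called in those directions. Hsf1 was higher under that code by 0.42 ± 0.06 (edgeR adjusted p = 0.0134), as 1 of 4 upstream regulators called higher. Without LCDD replicate 2, LCDD replicate 3 or WT replicate 2, 0 chaperones were called in either direction and 0 upstream regulators higher. The same held with the covariate and without the single WT mice. Without WT replicate 3, or without a genotype term, there were 1 chaperone higher, 0 lower and 1 upstream regulator. Without DH-LMP2A replicate 3 there were 2, 0 and 2, and without DH-LMP2A replicates 2 or 4 or WT replicates 4 or 5 the lower chaperones numbered 1. Under NS170411 edgeR called 0 genes of the 7 lists, with 0 to 11 per list at an unadjusted p under 0.05 (9.06% of all tested genes). DESeq2 was run for the 4 codes together only, where it called 16 of the 28 chaperones and 16 of the 34 feedback genes, beside the 5509 of 16738 genes given above.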

How the data were processed

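Libraries were stranded poly(A) libraries read in pairs of 75 bases, per the labels' protocols. The deposited values are unnormalized counts for each gene, which the authors obtained with featureCounts (Subread 1.5.0-p3) after alignment with STAR 2.4.0a to mm10 (GRCm38), per the submitters' processing notes, which also name DESeq2. The strand setting, the handling of reads with several matches and the annotation release are not given in the sources used here. The table also holds exon lengths, as deposited, and 0 count columns were left without a sample.

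The test was that of edgeR 4.0.16 (R 4.3.3): TMM factors, filterByExpr by genotype with a minimum count of 10, and 1 quasi-likelihood fit of all 13 libraries with genotype, or with genotype and title code for the code. Adjusted p-values are Benjamini-Hochberg over the 16738 genes tested, and a gene is called under 0.05. The SE of a log2 fold change was taken as its size over the root of its F value. Log2 CPM used a prior count of 2. The steps were tested on simulated data. Alternatives were DESeq2 1.42.0, RLE factors, other filters, a proximal tubule marker covariate, the code as replicate block, fits of fewer libraries and each library left out. Summing Hspa1a and Hspa1b was added after seeing the data. Chi-square values per degree of freedom for the 22 pairs of the same genotype ran from 12.6 to 234. Within a genotype no library therefore appeared to be deposited more than once. Pairs of different genotypes were not part of this check. For LCDD and DH-LMP2A, deviations from the genotype means correlated at 0.153 to 0.593 over 4 pairs of the same code (mean 0.421). Over 12 pairs of different codes they correlated at -0.599 to 0.524 (mean -0.139), so the ranges overlapped. The code was taken to pair these libraries in the fit with the replicate block only, and the main fit had no block. This pairing comes from the titles.

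Shared windows were counted in GENCODE M21 transcripts, and promoters came from RefSeq (GRCm38.p6). The 10 genes, the lists and the tests were chosen with earlier results of these data known. Named genes were all 10, those called in a list (at most 4 of smallest p per list and comparison), 7 fixed genes (Hspa8, Dnajb1, Hspb1, Atf3, Nr4a1, Srf and Hsf1) and the 10 most correlated with each of the 2 groups, leaving out predicted genes. Some results that this rule names are not reported here.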

Additional observations from a re-analysis of the deposited data

Results flagged for a closer look

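Among 33 groups of values examined for a sample far from the others of its genotype, 1 stood out: the total count of LCDD replicate 3, 18604929, against 25276687 to 26544422 in the other LCDD libraries. Chance alone gives about 1.6 such cases among 33 groups. That library was the lowest of the 13 for Jun and for 0 of the other genes described here.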

How the results depend on the processing

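For each genotype comparison, 219 alternative values of the 10 genes were computed and 0 were called. The sign differed from the value reported in 4 of them for LCDD against DH-LMP2A, 30 for LCDD against WT and 17 for DH-LMP2A against WT. For the title code 6 of 219 were called, all of Jun or Ier2: DESeq2 called 2 of the 10 genes, edgeR without a filter on low counts 1 (Ier2), and leaving out each library gave 0 to 2.

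The number of all genes called moved more. For LCDD against DH-LMP2A it was 334, and became 812 with DESeq2, 153 at a mean of at least 5 CPM, 972 with the tubule covariate, 1021 with the replicate block, 213 in a fit of the 2 genotypes alone, and 113 (without DH-LMP2A replicate 2) to 484 (without DH-LMP2A replicate 1) when each library was left out. For LCDD against WT it was 308, and became 726, 116, 241, 536 and 185 in the same order, 54 without the single WT mice, and 159 (without WT replicate 4) to 441 (without WT replicate 1). For DH-LMP2A against WT it was 105, and became 458, 54, 570, 562 and 77, then 69 without the single mice, and 29 (without DH-LMP2A replicate 2) to 407 (without WT replicate 1). For the title code it was 3115, and became 5509 with DESeq2, 4 with the covariate, 63 in LCDD and DH-LMP2A alone, 1409 without a genotype term, 166 without the single mice, and 1502 (without WT replicate 3) to 2961 (without DH-LMP2A replicate 2). The cause was not tested. Higher calls were 65.3% of those for LCDD against DH-LMP2A (53.2% with the block) and 70.5% for LCDD against WT (59.4% with DESeq2, 51.9% without the single mice).

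Same-code libraries of LCDD and WT correlated at -0.165 to 0.4 (mean 0.214), and those of different codes at -0.476 to 0.477 (mean -0.072). For DH-LMP2A and WT the values were -0.159 to 0.568 (mean 0.298) and -0.538 to 0.315 (mean -0.091). Both lowest same-code values were those of WT replicate 5. The means were higher for the same code but the ranges overlapped, so the code is not shown to pair these libraries. With the replicate block 0 of the 10 genes were called in any of the 3 comparisons, and the median differences were 0.48, 0.15 and -0.33. Of 28 chaperones, 7 were called higher in LCDD and 6 in DH-LMP2A against WT with the block, where 2.05% and 1.77% of all genes were, and 0 without it. In DH-LMP2A against WT it also called the upstream regulators Elk3 (-1.03 ± 0.19, adjusted p = 0.0251) and Rps6ka1 (-0.99 ± 0.21, adjusted p = 0.0395) lower, where 1.58% of all genes were, with 1 higher and 2 lower among both the early transcription factors and the feedback genes. In LCDD against WT it called 1 feedback gene, Dusp6 (0.68 ± 0.16), and Adamts1 (0.96 ± 0.21) higher. All these adjusted p are by edgeR. The block changed no call of the 10 genes.

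Every library held at least 53 counts of each gene, so the spread between libraries and not depth limits these tests. Intervals of Fosb and HSP70 span over 4 log2 units between genotypes. With 4 or 5 libraries per genotype, 3 of them single mice of WT, an interval that includes 0 does not show equal levels. No molecular identifiers were used, so counts are not independent molecules.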
